A study of Mus musculus with 8 samples.

Results

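The 76 genes described here code for proteins of the mitochondrial ribosome, and were taken as every gene whose annotated symbol begins with Mrpl or Mrps followed by a digit. They were read by 156 probe sets with 1 symbol each, of 45037 probe sets on the array, and make up 76 of 18193 genes. By symbol 47 belong to the large subunit (Mrpl) and 29 to the small subunit (Mrps). The symbol is not the place of the protein in every case: the mammalian proteins of Mrps18a and Mrps30 lie in the large subunit, and that of Mrps36 is a component of the 2-oxoglutarate dehydrogenase complex. A gene with several probe sets is given by the one of highest mean log2 signal. All 76 genes passed the filter on low signals, and no value of a member was at or under the floor. A further 4 probe sets carry a member's symbol beside that of another gene and were assigned to neither, which leaves Mrpl30 and Mrpl53 with no probe set of their own.

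The mitochondrial ribosome translates the few messenger RNAs transcribed from mitochondrial DNA, which code for core subunits of the respiratory chain and of ATP synthase. Its ribosomal RNAs are transcribed in the organelle, while all of its proteins are coded in the nucleus, made in the cytosol and imported. Many of its proteins have a counterpart in bacterial ribosomes, and others exist only in mitochondria. Oligodendrocytes are known to need respiration while they differentiate and to make large amounts of membrane lipid as they form myelin.

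Oligodendrocyte precursor cells, which give rise to the myelin-forming cells of the brain, came from mixed cultures of the cerebral hemispheres of 15-day-old ICR mouse embryos. They spent 5 days with 10% serum and then, without serum, 48 hr at 31.5 °C (4 arrays) or 37 °C (4 arrays). Both groups share strain, age and medium, and the cells are primary cells rather than a pure line. Per the labels RNA came from 3 mice in each group, and nothing says that the 4 arrays are separate cultures, so errors and p-values cover the spread between these arrays, which may be technical. Scaled signals are listed for replicates 1 to 4 in that order, and changes as log2 of 31.5 °C minus 37 °C ± SE.

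The trimmed mean of the deposited signals differed between arrays by a factor of 1.889, and the scaled arrays differed in their cell type markers. Of 9 tested oligodendrocyte markers 8 were lower at 31.5 °C, with a summed signal over 11 measured markers of 10170 to 14500 at 31.5 °C and 20070 to 25320 at 37 °C. Precursor markers, of the labelled cell type, were present in both groups and summed to 16480 to 18950 at 31.5 °C and 17240 to 20550 at 37 °C (2 of 10 higher, 3 lower). The summed signals at 31.5 °C and at 37 °C were 9613 to 16940 and 12830 to 22660 for astrocyte markers (1 of 9 lower). They were 4946 to 8748 and 5314 to 11970 for microglia (0 of 9 passed), and 10670 to 13690 and 11130 to 15760 for neurons (1 of 10 higher, 1 lower). For fibroblasts they were 7445 to 15240 and 7996 to 12460 (0 of 8 passed), and for endothelium 101.7 to 205.1 and 87.6 to 197.4 (0 of 2 passed). With the replicate number of the arrays as a block in the fit, more markers of these types were lower at 31.5 °C: 6 of 9 for astrocytes, 3 of 9 for microglia, 4 of 10 each for neurons and precursors, 2 of 8 for fibroblasts and 1 of 2 for endothelium. Among microglial markers those lower were C1qa, C1qb and C1qc. C1qb, of the smallest p, changed by -1.18, -1.07, -1.24 and -1.17 in the 4 pairs (blocked limma adjusted p = 0.00117). The other tested microglial markers passed in neither fit, and 1 of them, Csf1r, lay above 0 (0.15). No marker was at the floor on all arrays. The part of these differences in the changes below was not tested, and fewer cells of a type and less RNA per cell cannot be told apart in such bulk samples.

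Promoter windows, 250 bases before to 50 bases after the annotated start, were matched in RefSeq (GRCm38.p6) for 67 of the 76 members. They were searched on both strands for the cores of factors known to act on nuclear genes of mitochondria, and for motifs of growth and oxidative stress control. The ETS core CCGGAAG, bound by GABP, was present in 24 of 67 member windows (35.8%), against 9.12% of 27025 windows of all genes and 18.6% of 9374 windows of tested genes. The NRF1 core GCATGCGC stood in 8 (11.9%, against 2.8% and 5.68%), 7 of them among 41 large-subunit and 1 among 26 small-subunit windows. The YY1 core AAGATGGCG stood in 8 as well (11.9%, against 1.49% and 3.37%). The E-box CACGTG, which reads the same on both strands, was in 5 (7.46%, against 7.24% and 10.3%), and the antioxidant response core TGACNNNGC in 13 (19.4%, against 12.5% and 14.6%). None of the 5 strings contains another, and a match is a description of the letters only. For a gene with several windows only the first listed was searched.

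The windows of 5 members that changed with temperature are printed to show how different they are, 3 that were higher at 31.5 °C followed by 2 that were lower, with capitals on every match to these 5 motifs. The window of Mrpl2, the first of 3 listed for this gene, lies at chr17:46645971-46646270 on the plus strand and holds an E-box. That of Mrps18c, at chr5:100798509-100798808 on the plus strand, holds an antioxidant core, an E-box and an ETS core. Mrpl22, at chr11:58171414-58171713 on the plus strand, was the 1 changed member with an NRF1 core, and also holds an ETS and an antioxidant core. Mrps21, at chr3:95871465-95871764 on the minus strand, holds an antioxidant and an ETS core. Mrps25, at chr6:92183974-92184273 on the minus strand, holds none of the 5. Each is written 5′ to 3′ on the strand of its gene.
Mrpl2: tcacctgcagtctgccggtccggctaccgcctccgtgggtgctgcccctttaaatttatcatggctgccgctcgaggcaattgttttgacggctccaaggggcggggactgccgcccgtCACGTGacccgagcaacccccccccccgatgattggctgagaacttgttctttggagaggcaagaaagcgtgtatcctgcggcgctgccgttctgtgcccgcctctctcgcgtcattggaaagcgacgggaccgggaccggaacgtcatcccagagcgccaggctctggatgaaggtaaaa
Mrps18c: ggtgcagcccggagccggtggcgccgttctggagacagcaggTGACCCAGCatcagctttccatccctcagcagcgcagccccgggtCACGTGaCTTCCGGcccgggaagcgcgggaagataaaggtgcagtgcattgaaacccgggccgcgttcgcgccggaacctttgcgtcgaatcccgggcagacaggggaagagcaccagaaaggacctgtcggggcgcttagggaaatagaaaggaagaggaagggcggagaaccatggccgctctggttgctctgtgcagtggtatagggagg
Mrpl22: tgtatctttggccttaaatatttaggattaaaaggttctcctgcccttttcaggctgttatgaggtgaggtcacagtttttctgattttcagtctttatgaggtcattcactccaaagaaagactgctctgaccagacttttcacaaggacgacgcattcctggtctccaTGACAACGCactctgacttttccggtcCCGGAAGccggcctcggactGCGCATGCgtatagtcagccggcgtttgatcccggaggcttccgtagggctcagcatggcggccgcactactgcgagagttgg
Mrps21: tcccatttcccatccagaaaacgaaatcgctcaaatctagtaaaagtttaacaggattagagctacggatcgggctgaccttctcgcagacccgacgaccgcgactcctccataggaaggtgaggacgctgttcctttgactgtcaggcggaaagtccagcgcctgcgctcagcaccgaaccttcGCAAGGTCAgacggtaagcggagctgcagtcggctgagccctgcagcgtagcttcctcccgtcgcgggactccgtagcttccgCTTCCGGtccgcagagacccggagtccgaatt
Mrps25: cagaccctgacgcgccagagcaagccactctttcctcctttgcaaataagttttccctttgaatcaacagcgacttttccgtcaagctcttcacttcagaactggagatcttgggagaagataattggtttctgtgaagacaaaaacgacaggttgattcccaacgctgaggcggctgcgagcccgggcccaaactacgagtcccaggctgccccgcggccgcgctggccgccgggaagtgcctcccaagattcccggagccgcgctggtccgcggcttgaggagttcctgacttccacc

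At 31.5 °C the mitochondrial ribosomal protein genes did not share a direction: some were higher, some were lower, and most did not pass. Of the 76 members 5 rose, which is 6.58% where 7.64% of all 11525 tested genes rose, and 8 fell, which is 10.5% where 7.77% of all genes fell (limma, adjusted p under 0.05). Both shares lie near those of all genes. The other 63 members did not pass in this fit, which leaves out the pairing of the arrays by replicate number. With that number as a block, more members passed, 12 higher and 12 lower. So did more of all genes, 15.0% higher and 15.8% lower. The median change was -0.00097, with the central 50% of members from -0.13 to 0.19, and 38 members lay above 0 and 38 below. Over all genes tested the median was -0.0017 and the central 50% lay from -0.19 to 0.17. Within the 4 pairs of arrays of 1 replicate number the median of the members was 0.0095, 0.073, -0.020 and -0.043. These medians had no common sign.

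Changes of the members were near those of all genes in size. By the probe set that stands for the gene, no member changed 2-fold, where 163 of all genes tested (1.41%) did. Changes of more than 1.5-fold were seen in 3 members (3.95%, against 7.58% of all genes). Other probe sets of Mrpl3, Mrpl35 and Mrpl57, given below, fell more than 2-fold. The median size of a change was 0.16 for members and 0.18 for all genes, with a median SE of 0.099 and 0.12. In 10 members (13.2%, against 11.7% of all genes) all 4 signals at 31.5 °C lay above all 4 at 37 °C, and in 12 (15.8%, against 10.5%) all lay below. In 44 members the change had 1 sign in all 4 pairs, which is true of 50.4% of all genes. With the replicate number as a block, 12 members were higher (15.8%, where 15.0% of all genes were) and 12 lower (15.8%, where 15.8% of all genes were), and all 13 calls above were among these 24. Under median scaling, where all genes had a median of 0.087, 3 members were higher and 1 lower, and all genes split 3.94% higher and 2.35% lower.

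**Figure D1:**
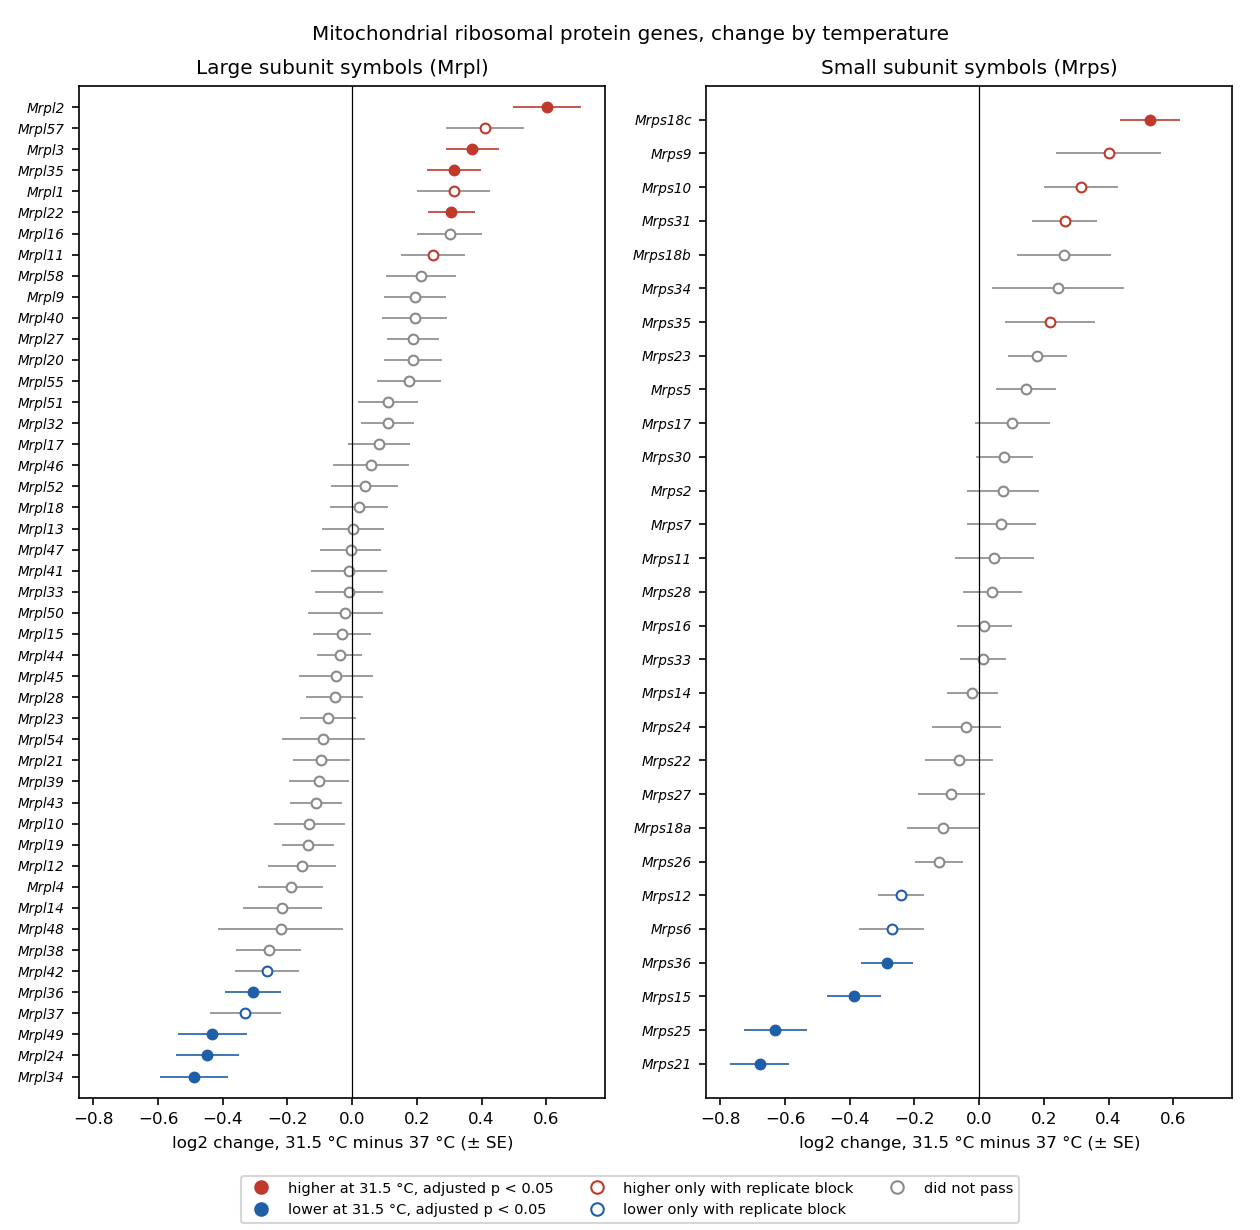
Log2 change (31.5 °C minus 37 °C, x axis) of each of the 76 genes ± SE, large-subunit symbols on the left and small-subunit symbols on the right, sorted by change; filled points passed the threshold and coloured open points passed only with the replicate block. The members run from -0.68 (Mrps21) to 0.60 (Mrpl2) and cross 0 near the middle of both panels.

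The 5 genes that rose were Mrpl2, Mrps18c, Mrpl3, Mrpl35 and Mrpl22, of which 4 belong to the large subunit. All 5 have a bacterial counterpart, as do 45 of the 76 members in all. Mrpl2 (probe set 1448811_at), whose protein lies near the catalytic centre of the large subunit, had signals of 862, 780.0, 783 and 698 at 31.5 °C, against 555, 514, 552 and 438 at 37 °C. The lowest array at 31.5 °C was above the highest at 37 °C. The change was 0.60 ± 0.10, or 1.52-fold, from 781 ± 66.8 against 515 ± 54.5 (SD, n = 4 each; limma adjusted p = 0.00845).

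Mrps18c (1427901_at), the one of the 3 mammalian S18 genes that corresponds to the bacterial small-subunit protein, had 1524, 1570.1, 1361 and 1296 at 31.5 °C, against 962, 945, 1100.3 and 977 at 37 °C. It was the only small-subunit gene that rose without the replicate block, while 5 were higher with it. The temperatures did not overlap for Mrps18c (0.53 ± 0.09, limma adjusted p = 0.00889). The paralogs did not pass. Mrps18b, which sits in the small subunit, averaged 422 ± 34.6 at 31.5 °C and 357 ± 69.0 at 37 °C (0.26 ± 0.15, limma adjusted p = 0.259). Mrps18a, which sits in the large subunit, averaged 775 ± 10.6 at 31.5 °C and 845 ± 133 at 37 °C (-0.11 ± 0.11, limma adjusted p = 0.552). The difference between the 3 paralogs was not tested.

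Mrpl3 (1422464_at), a large-subunit protein that reaches the catalytic centre, had 1074, 1123, 1061 and 1005 at 31.5 °C, against 870.4, 819, 867 and 744 at 37 °C (0.37 ± 0.08, limma adjusted p = 0.0202). Mrpl22 (1435995_at), which lines the exit tunnel of the nascent chain, had 1157, 1172, 1091 and 1049 at 31.5 °C, against 918, 880.4, 903 and 909 at 37 °C (0.31 ± 0.07, limma adjusted p = 0.0251). Mrpl35 (1419363_a_at), another large-subunit protein, had 911, 849.7, 933 and 824 at 31.5 °C, against 704, 651, 768 and 704 at 37 °C (0.32 ± 0.08, limma adjusted p = 0.0359). The temperatures did not overlap in any of these 3. The calls of Mrpl2 and Mrps18c held in all 22 alternatives, while those of the other 3 ended under median scaling (adjusted p = 0.102 for Mrpl3, 0.119 for Mrpl22 and 0.117 for Mrpl35). Those of Mrpl3 and Mrpl22 also ended without replicate 1, 2 or 3 at 31.5 °C or replicate 2 at 37 °C (adjusted p up to 0.0578 and 0.0719), and that of Mrpl35 without any 1 array but replicate 4 at 31.5 °C and replicate 3 at 37 °C (up to 0.101). Mrpl3 and Mrpl35 also changed sign when the probe sets of a gene were averaged.

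The 8 genes that fell were divided between the subunits, 4 with Mrpl and 4 with Mrps symbols. The 2 largest falls were in small-subunit genes. Mrps21 (1422451_at), a small-subunit protein with a bacterial counterpart, had 534, 432, 529.5 and 542 at 31.5 °C, against 791, 810.4, 837 and 808 at 37 °C. Even the highest array at 31.5 °C lay well below the lowest at 37 °C (-0.68 ± 0.09, limma adjusted p = 0.00358). Mrps25 (1449194_at), found only in mitochondria, had 358, 312, 349 and 282 at 31.5 °C, against 527, 484, 525 and 471 at 37 °C (-0.63 ± 0.10, limma adjusted p = 0.00572). A second probe set of Mrps25, 1418716_at, fell by 0.59 ± 0.09 (limma adjusted p = 0.00591 over all probe sets). It had 101, 102, 104 and 102 at 31.5 °C, against 144, 152, 178 and 143 at 37 °C.

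Among large-subunit genes, Mrpl34 (1416349_at), a small protein that binds ribosomal RNA, had 749.6, 791, 627 and 618 at 31.5 °C, against 1061, 949.9, 912 and 968 at 37 °C (-0.49 ± 0.10, limma adjusted p = 0.0180). Mrpl24 (1428709_a_at), which lies near the mouth of the exit tunnel, had 903, 804, 848 and 693 at 31.5 °C, against 1169.7, 1068, 1137 and 1037 at 37 °C (-0.45 ± 0.10, limma adjusted p = 0.0196). Mrpl24 thus fell while Mrpl22, at the same tunnel, rose. Mrpl49 (1423219_a_at), found only in mitochondria, had 330.0, 310.2, 261 and 267 at 31.5 °C, against 435, 387, 398 and 351 at 37 °C (-0.43 ± 0.11, limma adjusted p = 0.0296). Mrpl36 (1422819_at), a small protein with a bacterial counterpart, had 291, 292, 245 and 266 at 31.5 °C, against 318, 354, 328 and 349 at 37 °C (-0.31 ± 0.09, limma adjusted p = 0.0450). The temperatures did not overlap in any of the 4, though for Mrpl36 the gap between 292 and 318 was narrow. In the fit over single probe sets the same set of Mrpl36 did not pass without the block, and passed with it (limma adjusted p = 0.0571 and 0.0365 over all probe sets).

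In the small-subunit list, Mrps15 (1456109_a_at), a protein that binds the small ribosomal RNA, had 624, 561, 554 and 587 at 31.5 °C, against 718, 724, 832 and 770.2 at 37 °C (-0.39 ± 0.08, limma adjusted p = 0.0176). Mrps36 (1423242_at), the dehydrogenase component that keeps a ribosomal symbol, had 480.5, 468, 523 and 538 at 31.5 °C, against 581, 627, 589 and 649 at 37 °C (-0.28 ± 0.08, limma adjusted p = 0.0469). RefSeq lists 3 pseudogenes of Mrps36, whose transcripts the probes could share. Neither gene overlapped between temperatures. In the fit over single probe sets the same set of Mrps36 did not pass without the block, and passed with it (limma adjusted p = 0.0602 and 0.0360 over all probe sets). Of the 8 falls, Mrps21 kept its call in all 22 alternatives, while the other 7 lost it under median scaling (adjusted p = 0.0782 for Mrps25, the lowest, to 0.392 for Mrpl36, the highest). With single arrays left out, Mrpl36 lost its call in 8 of 8 fits, Mrps36 in all but that without replicate 4 at 31.5 °C, and Mrpl49 in all but those without replicate 1 at 31.5 °C or replicate 4 at 37 °C. Mrps15 lost it without replicate 2 or 3, Mrpl24 without replicate 2 and Mrpl34 without replicate 3, all at 31.5 °C (adjusted p over these fits up to 0.119). Mrpl34 also lost it with the mean of its probe sets (adjusted p = 0.295). Over the 22 alternatives the call held in 21 for Mrps25, 20 for Mrpl24, 19 for Mrpl34 and 16 for Mrps15. It held in 14 for Mrpl49, 10 for Mrps36 and 9 for Mrpl36.

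**Figure D2:**
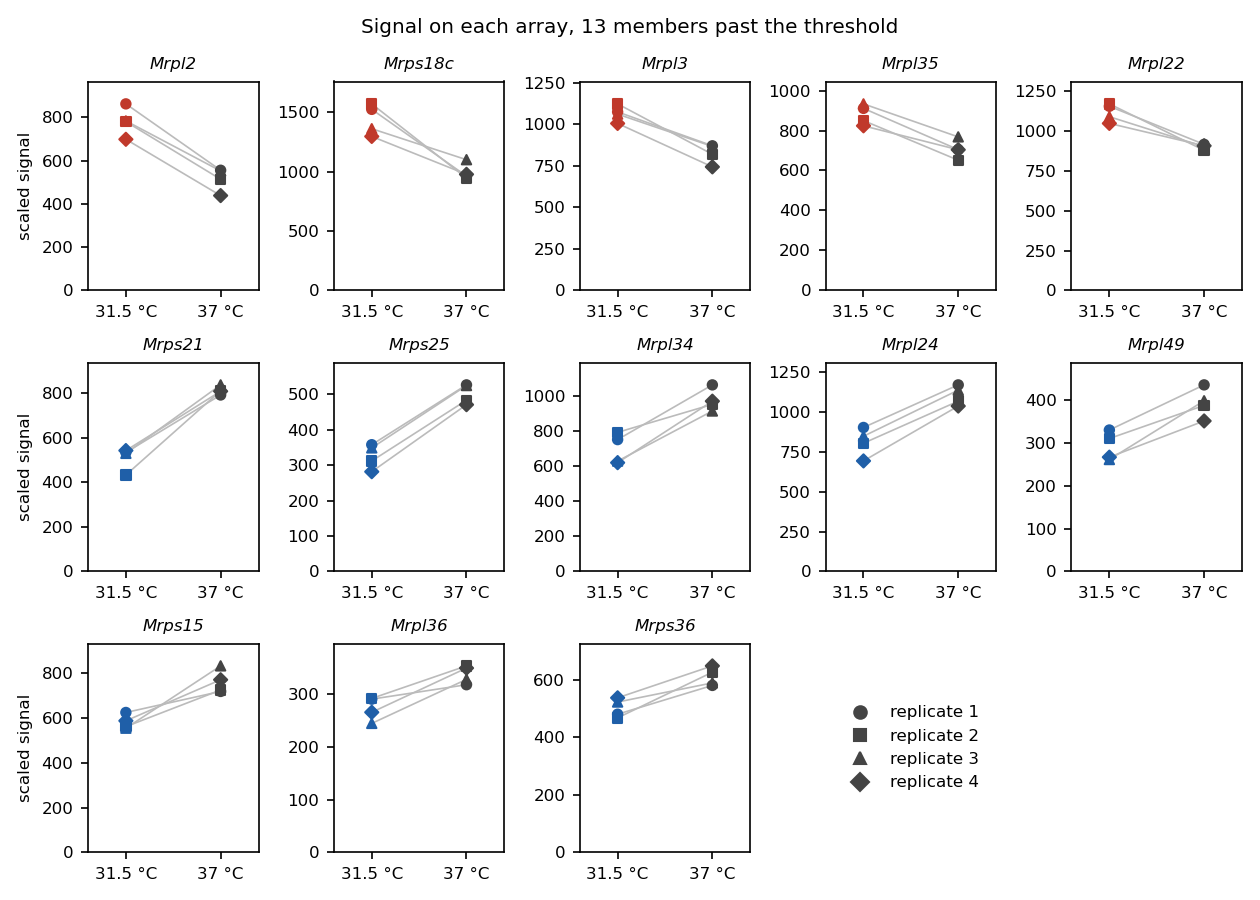
Scaled signal (y axis, from 0) of the 13 genes past the threshold on each array at 31.5 °C (left of each panel) and 37 °C (right); lines join arrays of 1 replicate number. In all 13 panels the 4 lines run the same way and the temperatures do not overlap, and Mrps21 at 31.5 °C has 1 array at 432 with the other 3 between 529.5 and 542.

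A further 11 members passed only with the replicate block. Of these 7 were higher, Mrpl57 (0.41), Mrps9 (0.40), Mrps10 (0.31), Mrpl1 (0.31), Mrps31 (0.27), Mrpl11 (0.25) and Mrps35 (0.22), with blocked adjusted p of 0.0199 to 0.0488. The 4 that were lower were Mrpl37 (-0.33), Mrps6 (-0.27), Mrpl42 (-0.26) and Mrps12 (-0.24), at 0.0301 to 0.0417. Mrps12, the protein of the decoding site, missed the threshold without the block although its temperatures did not overlap. It had 706, 726, 666 and 684 at 31.5 °C, against 790.1, 857, 811 and 829 at 37 °C (limma adjusted p = 0.0516). Mrps6, with 2152, 2028, 2063 and 1885 at 31.5 °C, against 2807, 2203, 2596 and 2238 at 37 °C, likewise showed no overlap (limma adjusted p = 0.103).

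Several members of known further roles did not pass in either fit. Mrpl12, the stalk protein that recruits translation factors and binds mitochondrial RNA polymerase in human cells, averaged 1221 ± 94.1 at 31.5 °C and 1363 ± 160.4 at 37 °C (-0.15 ± 0.11, limma adjusted p = 0.364). Mrpl58, a peptidyl-tRNA hydrolase built into the large subunit, averaged 929.9 ± 94.7 at 31.5 °C and 803 ± 82.3 at 37 °C (0.21 ± 0.11, limma adjusted p = 0.219). Mrps30, a large-subunit protein despite its symbol, changed by 0.08 ± 0.09 (limma adjusted p = 0.598). Mrpl39, Mrpl51, Mrps14 and Mrps33, taken for their high signals, changed by -0.10, 0.11, -0.02 and 0.01 (limma adjusted p = 0.461 to 0.928). The 4 measured subunits with other names, Dap3, Chchd1, Gadd45gip1 and Ptcd3, changed by -0.16, -0.13, -0.05 and 0.03, and none passed (limma adjusted p = 0.273 to 0.874).

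Set against each other, the subunits differed little. Of the 47 Mrpl genes 4 rose and 4 fell (8.51% each), with a median of -0.0096. Of the 29 Mrps genes 1 rose (3.45%) and 4 fell (13.8%), with a median of 0.041. Over all genes 7.64% rose and 7.77% fell. The large-subunit median minus the small-subunit median was -0.050 over all arrays, and -0.0995, -0.049, -0.035 and 0.022 in the 4 pairs, so 1 pair had the other sign (SD 0.050, n = 4 pairs). With Mrps18a and Mrps30 moved to the large subunit and Mrps36 left out, the difference was -0.053. With the block, 7 Mrpl genes were higher and 6 lower, and 5 Mrps genes were higher and 6 lower. Of all genes 15.0% were higher and 15.8% lower with the block.

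The counts by ancestry are small, and are to be read against the 7.64% of all genes that rose and the 7.77% that fell. With the block these shares were 15.0% and 15.8%. All 5 rises were among the 45 members with a bacterial counterpart and none among the 30 found only in mitochondria. Falls numbered 5 among members with a counterpart and 2 among the others, beside Mrps36. With the block 9 and 3 were higher and 7 and 4 lower, so the mitochondria-only genes were no longer without rises. In the large subunit the median was 0.0026 for 29 genes with a counterpart and -0.044 for 20 without. In the small subunit it was 0.044 for 16 and 0.096 for 10. No difference between these classes was tested.

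**Figure D3:**
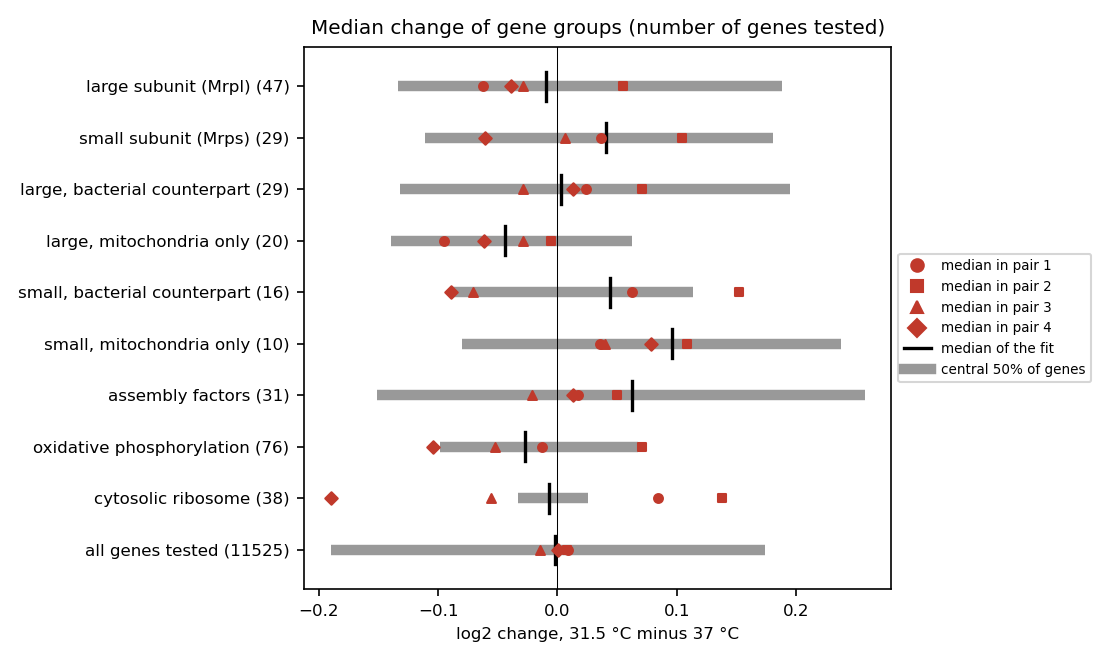
Median log2 change (31.5 °C minus 37 °C, x axis) of gene groups, with the number of genes tested in brackets; the black line is the median of the fit, the grey bar the central 50% of genes and the 4 symbols the medians within pairs. Medians of the mitochondrial ribosomal groups lie between -0.044 and 0.096, and the pair medians of the cytosolic ribosomal genes reach from -0.19 to 0.14.

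The choice of probe set decided the direction of some members. Of the 156 probe sets 128 passed the filter, and tested singly 6 of them were higher (6.46% of all 22519 probe sets were) and 12 lower (6.76% of all). With the block the counts were 13 (12.4% of all) and 17 (13.9% of all), so that calls became more frequent over all probe sets as well. Of the 76 members 42 had 1 tested probe set. Among the 34 with several, the probe sets had 1 sign in 19 and both signs in 15, and in 5 of these at least 1 passed: Mrpl3, Mrpl15, Mrpl35, Mrpl51 and Mrpl57. In Mrpl3 and Mrpl35, probe sets of the same gene passed in opposite directions.

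For Mrpl3, 1440636_at had 33.5, 40.1, 41.1 and 52.8 at 31.5 °C, against 99.9, 69.2, 75.6 and 89.8 at 37 °C (-1.002 ± 0.16, limma adjusted p = 0.00688). This is opposite to the rise of 1422464_at, while the remaining probe set 1422463_a_at changed by 0.24 (limma adjusted p = 0.111). For Mrpl35, 1440989_at had 54.0, 64.1, 56.4 and 60.3 at 31.5 °C, against 111, 136, 106 and 131 at 37 °C (-1.04 ± 0.11, limma adjusted p = 0.00117). It fell without overlap while 1419363_a_at rose without overlap.

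Mrpl57, a mitochondria-only protein of the large subunit, had probe sets of opposite sign, of which the one that fell passed. Its probe set 1418137_at had 1669, 1768, 1804 and 1739 at 31.5 °C, against 1101, 1165, 1489.8 and 1550.3 at 37 °C (0.41 ± 0.12, limma adjusted p = 0.0521 over genes, and 0.0241 with the block). By contrast 1460225_at had 43.6, 29.3, 50.5 and 46.1 at 31.5 °C, against 90.0, 90.6, 86.0 and 96.2 at 37 °C (-1.13 ± 0.16, limma adjusted p = 0.00399). Both sets separated the temperatures completely, in opposite directions.

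For Mrpl51, 1416878_at had 35.8, 56.9, 41.8 and 48.6 at 31.5 °C, against 78.7, 70.1, 66.2 and 65.7 at 37 °C (-0.63 ± 0.15, limma adjusted p = 0.0238). The representative set of Mrpl51, 1416877_a_at, changed by 0.11 and did not pass. Mrpl15 went the other way: 1430798_x_at had 217, 230.2, 219.7 and 297 at 31.5 °C, against 130.1, 112, 146 and 193 at 37 °C (0.75 ± 0.18, limma adjusted p = 0.0263). The other 4 tested sets of Mrpl15 changed by -0.20 to 0.10 and none passed. In Mrps14 both sets had 1 sign, with -0.73 for 1420488_at (limma adjusted p = 0.0244) and -0.02 for the representative 1420489_at. Which transcript each of these sets reads was not tested.

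**Figure D4:**
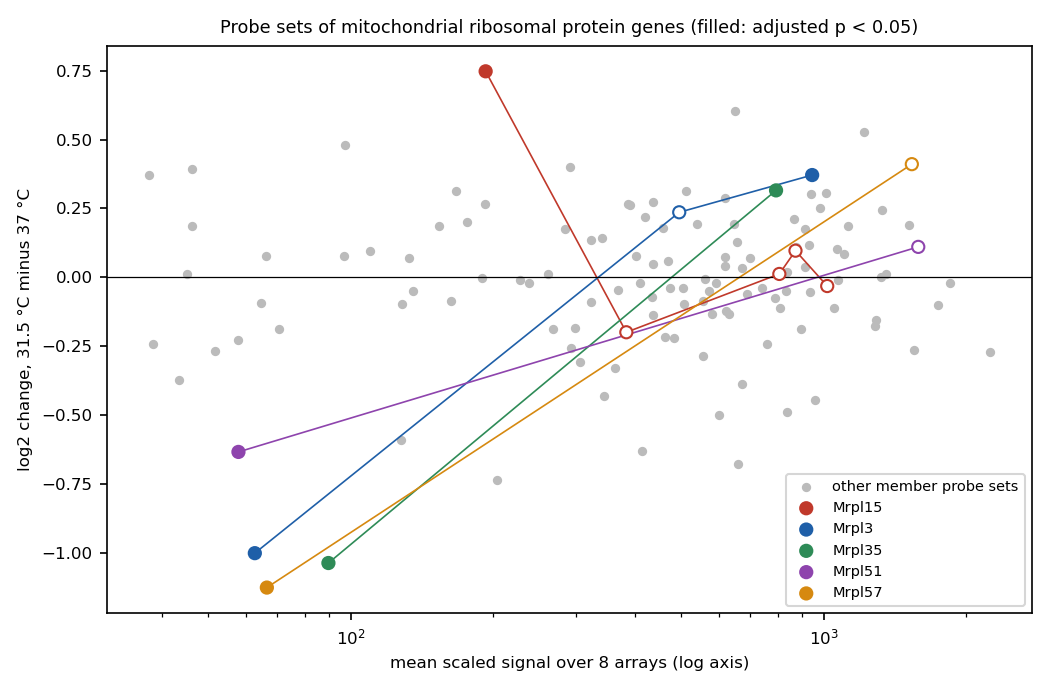
Log2 change (31.5 °C minus 37 °C, y axis) against the mean scaled signal over 8 arrays (log x axis) for the 128 tested probe sets; lines join the sets of the 5 genes with both signs, and filled coloured points passed the threshold. For Mrpl3, Mrpl35, Mrpl51 and Mrpl57 the set that fell is at the left, at changes of -0.63 to -1.13, and for Mrpl15 the set at the left rose by 0.75.

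The genes that build and serve the mitochondrial ribosome were taken as lists beside the members. Their counts are to be read against the 7.64% of all genes that rose and the 7.77% that fell, or 15.0% and 15.8% with the block. Of 31 tested assembly factors 5 rose (16.1%) and none fell, with a median of 0.063. With the block 7 were higher and 2 lower. Gtpbp10, a GTPase of large-subunit assembly, had 132, 124, 127 and 121 at 31.5 °C, against 69.7, 78.5, 76.0 and 92.7 at 37 °C (0.68 ± 0.10, limma adjusted p = 0.00460). Malsu1, which keeps the subunits from joining too early, had 754, 715, 658 and 669.8 at 31.5 °C, against 507, 467, 482 and 468 at 37 °C (0.54 ± 0.08, limma adjusted p = 0.00460). Rcc1l and Rpusd3, of a module bound to the large ribosomal RNA, rose by 0.50 and 0.45, and Mtg1, a further assembly GTPase, by 0.39 (limma adjusted p = 0.00965, 0.0293 and 0.0378). The call of Gtpbp10 held in every alternative that tested it, and those of the other 4 each ended in at least 1 (adjusted p up to 0.205 for Malsu1 with the mean of its probe sets).

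Translation factors moved in both directions. Of 16 tested, 1 rose (6.25%) and 2 fell (12.5%), and with the block 1 was higher and 3 lower. Guf1, a GTPase of elongation, had 238, 221, 220.1 and 221 at 31.5 °C, against 133, 137, 127 and 100.1 at 37 °C (0.87 ± 0.11, limma adjusted p = 0.00285). Mrrf, which recycles ribosomes after termination, had 157, 159, 157 and 149 at 31.5 °C, against 254, 216, 232 and 248 at 37 °C (-0.61 ± 0.08, limma adjusted p = 0.00322). These changes separated the temperatures fully and held in all 22 alternatives. Tufm, the elongation factor that brings aminoacyl-tRNA, fell by 0.42 ± 0.10 (limma adjusted p = 0.0302, up to 0.280 with median scaling). Of 15 mitochondrial tRNA synthetases 1 rose and 1 fell (6.67% each), and with the block 2 were higher and 2 lower. Iars2, for isoleucine, rose by 0.57 ± 0.09 and Lars2, for leucine, fell by 0.46 ± 0.09 (limma adjusted p = 0.00662 and 0.0152, the second up to 0.189 with median scaling).

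Of 19 genes of mitochondrial DNA transcription and replication 2 rose (10.5%) and 1 fell (5.26%), and with the block 3 were higher and 1 lower. Slirp, an RNA-binding protein that stabilises mitochondrial messenger RNA, rose by 0.29, the single-stranded DNA-binding gene Ssbp1 rose by 0.35, and the polymerase gene Polg fell by 0.27 (limma adjusted p = 0.0359, 0.0359 and 0.0469, up to 0.0915, 0.529 and 0.475 over the alternatives). Of 10 regulators of mitochondrial biogenesis 2 fell and none rose, and with the block 3 were lower. Ppargc1a, a coactivator of genes of mitochondria, had 155, 151, 181 and 186 at 31.5 °C, against 247, 205, 219 and 302 at 37 °C (-0.52 ± 0.13, limma adjusted p = 0.0332, up to 0.0874). Pprc1, a related coactivator, had 239, 246, 271 and 255 at 31.5 °C, against 286, 318, 359 and 328 at 37 °C (-0.35 ± 0.09, limma adjusted p = 0.0336, up to 0.255). Of the genes for the factors whose cores were searched in the promoters, Nrf1 changed by 0.04 and Gabpa by -0.12, and neither passed (limma adjusted p = 0.823 and 0.548). Yy1 changed by -0.21, with all 4 arrays at 31.5 °C below all 4 at 37 °C, and passed with the block only (limma adjusted p = 0.0910, and 0.0427 with the block).

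Of 76 tested nuclear subunits of oxidative phosphorylation, 1 rose (1.32%) and 6 fell (7.89%), with a median of -0.027. The share that fell is near that of all genes. With the block 5 were higher and 11 lower. Of 38 cytosolic ribosomal protein genes none rose and 1, Rps6, fell (2.63%; limma adjusted p = 0.0367), with a median of -0.0074. With the block 3 were lower and none higher. The central 50% of the cytosolic genes lay between -0.033 and 0.026, against -0.13 to 0.19 for the mitochondrial ribosomal genes. The difference in spread was not tested. The pair medians of the cytosolic genes were 0.085, 0.14, -0.055 and -0.19.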

How the data were processed

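Expression was measured on 8 arrays, 4 at each temperature. The authors deposited linear intensity values per probe set, which the submitters' processing notes credit to MAS5; its version, scaling target and detection calls are not given in the sources used here. The number of arrays limits the precision. Of 45101 probe sets 64 were controls and not used; 34945 carried 1 symbol, 932 several and 9160 none, and only those with 1 symbol named a gene. The arrays were brought to a common 2% trimmed mean (factors 0.848 to 1.60), low values were raised to the 25th percentile (9.80), and log2 was taken. A gene was read from its probe set of highest mean log2 signal, and 11525 genes with a mean of at least 36.3, the median over all probe sets, were tested. The change, 31.5 °C minus 37 °C, was fitted over all genes by lmFit and eBayes of limma 3.58.1 (two-sided, in R 4.3.3), temperature being the only term, with Benjamini-Hochberg adjustment and a threshold of 0.05, and again over 22519 single probe sets. An adjusted p given for a second probe set of a gene, for a set with several symbols, or as over all probe sets is from the probe set fit. All others are from the gene fit.

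Arrays of 1 replicate number deviated together from their group means (correlations across genes of 0.422 to 0.614, against at most 0.0566 between numbers), so the numbers pair the arrays. A fit with the replicate number as a block stands beside the results whose calls it changes. No 2 arrays shared more than 0.707% of their values. Lists are described by counts and medians, without a test. The closing section lists the alternatives tried.

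Named genes are the members past the threshold, the 5 largest changes in each direction, the 3 of highest signal in each subunit, members whose tested probe sets differ in sign with 1 past the threshold, 8 members fixed by name, and, from each other list, at most 3 genes with the smallest p. The exceptions are the assembly factors, with 5 genes, and the subunits of other names, with all 4 tested. The members passing only with the block, further genes of short counts, and the promoters printed were chosen after their values were seen. The members and lists were chosen with earlier results of these data known. Promoter windows are RefSeq's, with 1-based coordinates. The procedure was tested on simulated data. Plots were made in Python 3.11.15 with matplotlib 3.10.9.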

Additional observations from a re-analysis of the deposited data

Results flagged for a closer look

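Mrps21, the member with the largest fall, had 1 array apart from the others at 31.5 °C: replicate 2 had a signal of 432, while the other 3 lay between 529.5 and 542. The gap to the nearest array was 0.884 of the whole range, above Dixon's critical value for 4 arrays. It was the 1 array so singled out in 58 groups of 4, and about 0.05 of groups are expected to be by chance. All 4 arrays at 31.5 °C, with or without it, lay below the lowest at 37 °C (791), and the fall of Mrps21 passed with each array left out in turn.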

How the results depend on the processing

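The 22 alternatives were quantile or median scaling, no floor or a higher one, no filter or a stricter one, averaging the probe sets of a gene, omitting sets that end in _x_at or _s_at, an intensity trend, the replicate block, and each array or pair left out. The fits without a pair of arrays used the replicate block, and those without a single array did not. The counts of calls were the least stable values. Against 5 members higher and 8 lower, median scaling gave 3 and 1, with a median of 0.088 (0.087 over all genes) and 4 probe sets lower against 12; averaging probe sets gave 3 members higher. The replicate block gave 12 members higher and 12 lower, and 13 probe sets higher and 17 lower against 6 and 12; beyond the calls given in the report the pairing changed no call of the members. With arrays or pairs left out, the members higher ranged from 2 to 7 and lower from 3 to 9, probe sets higher from 2 to 5 and lower from 6 to 12 (to 11 with single arrays), the median from -0.021 to 0.031, and the large minus small difference from -0.077 to -0.015. Leaving out replicate 1, 2 or 3 at 31.5 °C or replicate 2 at 37 °C left 2 members higher. Leaving out pair 1 or 2 left 3, against 12 in the block fit of all arrays. Leaving out replicate 2 or 3 at 31.5 °C left 3 lower, and leaving out replicate 1, 2 or 3 at 37 °C left 5. The cause was not tested, beyond the fewer samples of such fits.

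Signs reversed with averaged probe sets for Mrpl3 (-0.052), Mrpl35 (-0.51), Mrpl57 (-0.36), Mrpl51 (-0.27), Mrpl15 (0.061) and Ptcd3 (-0.42), since other probe sets then enter, some of them below the filter on low signals. They reversed under median scaling for Mrps14 (0.068), Mrpl15 (0.057) and Gadd45gip1 (0.036), for Mrps33 under quantile normalization (-0.00092) and for Mrpl15 without _x_at and _s_at sets (0.012). With single arrays left out, Mrps33 ranged from -0.0012 to 0.041, Mrps14 from -0.052 to 0.032, Mrpl15 from -0.076 to 0.014, Gadd45gip1 from -0.11 to 0.021 and Ptcd3 from -0.035 to 0.10. Without pair 3 Ptcd3 was -0.086, and without pair 4 Mrps14 was 0.027. Of the genes in this paragraph Mrpl3 and Mrpl35 passed in the gene fit.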

Other observations

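Some members start near a gene on the other strand. The share of all genes that do so was not counted. Of 67 members with a promoter window, 26 had the start of another gene on the opposite strand within 1000 bases upstream or 50 bases downstream of their own. Of the changed members 3 did, and in each the neighbour did not pass. Mrpl2 changed by 0.60 while Klc4, a kinesin light chain gene starting 141 bases away, changed by 0.0016 (limma adjusted p = 0.994). Mrps18c changed by 0.53 while the helicase gene Helq, 159 bases away, changed by -0.09 (limma adjusted p = 0.650). Mrpl49 changed by -0.43 while Fau, which codes for a protein of the cytosolic ribosome and starts 192 bases away, changed by 0.10 (limma adjusted p = 0.482). In the pair Mrpl46 and Mrps11 both genes are members, 42 bases apart, with changes of 0.06 and 0.05 that did not pass. Mrps12 and the mitochondrial synthetase gene Sars2, 147 bases apart, changed by -0.24 and -0.28, and neither passed without the replicate block. With the block Mrps12 passed and Sars2 did not (blocked limma adjusted p = 0.0303 and 0.278). Beside members that did not pass, Psma2 (near Mrpl32), Zfp189 (near Mrpl50) and Gga3 (near Mrps7) changed by 0.31, -0.33 and -0.36. These neighbours passed (limma adjusted p = 0.0216, 0.0247 and 0.0325). The difference within these pairs was not tested.

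The probe sets with several symbols belong to no gene here. The set of Ccdc142 and Mrpl53 (1451178_at) had 635, 663, 629.9 and 543 at 31.5 °C, against 780.2, 848, 766 and 750.0 at 37 °C (-0.35 ± 0.09, limma adjusted p = 0.0389 over all probe sets). That of Gm6238 and Mrpl30 (1423857_at) had 2221, 2203, 2164 and 2102 at 31.5 °C, against 1837, 1766, 1889 and 1842 at 37 °C (0.24 ± 0.07, limma adjusted p = 0.0584, and 0.0432 with the replicate block), with no overlap. That of Nme3 and Mrps34 (1448905_at) changed by -0.46 (limma adjusted p = 0.0653, and 0.0274 with the block), whereas the set of Mrps34 alone changed by 0.24.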
